A study of Mus musculus with 6 samples.

Results

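The cyclic nucleotide phosphodiesterases described here are 10 genes, Pde4d, Pde4b, Pde4a, Pde3a, Pde1c, Pde1a, Pde2a, Pde5a, Pde7a and Pde8a, of 19938 genes named on the array. They were taken as every probe set that the platform annotation assigns to those symbols, which gave 12 probe sets, 3 for Pde4d and 1 for each of the other 9 genes. The list was chosen by measured values, namely the signal levels of the genes and their difference between the groups, so all their values in that comparison are given as a description. They stood in the fit over all genes, but its threshold is no test of genes listed for this difference, and no p is given for them. The samples were left ventricles of male C57BL/6 mice aged 10 weeks, 3 from a group given 2-methyl-2-thiazoline (2MT, a small thiazoline compound) and 3 from a saline group, with 1 Affymetrix array each. Per the labels' protocols, 2MT was injected subcutaneously at 50 mg/kg and the hearts were excised 4 h later. The protocol text describes no injection of saline, and the saline samples are known as such only from their treatment label. The stated question was how 2MT comes to protect the heart. The labels do not say whether each array stands for its own animal, so the spread between arrays may be technical.

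Cyclic nucleotide phosphodiesterases cut cAMP and cGMP to their inactive monophosphates and so end the signals that adenylyl and guanylyl cyclases begin. In the heart, cAMP raises the rate and force of contraction through protein kinase A, while cGMP acts mainly through protein kinase G. The enzymes differ in the nucleotide they prefer: the Pde4, Pde7 and Pde8 enzymes cut cAMP, the Pde5 enzyme cuts cGMP, and the Pde1, Pde2 and Pde3 enzymes bind or cut both.

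Cultured-cell work has shown some phosphodiesterase genes to be induced by cAMP itself, and upstream sequence is shown first for Pde4d, the gene with the largest difference of the set. RefSeq promoter windows (GRCm38.p6, 250 bases before to 50 after a start) were at hand for 8 of the 10 genes, 22 windows in all, and not for Pde3a and Pde7a. The 250 bases before the only Pde4d start at hand lie on the plus strand at chr13:108653927-108654176. They hold neither the cAMP response element TGACGTCA nor its core TGACG on either strand, and are printed without capitals. Any other start of Pde4d was not searched, so this absence holds for this window alone.
Pde4d: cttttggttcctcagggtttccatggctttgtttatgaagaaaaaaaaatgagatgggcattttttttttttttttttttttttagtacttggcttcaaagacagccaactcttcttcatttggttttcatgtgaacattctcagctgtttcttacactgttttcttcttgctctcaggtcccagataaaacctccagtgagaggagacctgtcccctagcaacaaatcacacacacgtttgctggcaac

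Stretches of 60 bases round a core follow for the other members that hold one before a start, with the core in capitals (CGTCA where it lies on the opposite strand). They lie at chr4:102421493-102421552 (plus) for Pde4b, chr9:21184023-21184082 (plus) for Pde4a, chr2:80039037-80039096 (minus) for Pde1a and chr7:81213153-81213212 (plus) for Pde8a.
Pde4b: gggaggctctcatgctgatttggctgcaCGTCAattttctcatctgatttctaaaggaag
Pde4a: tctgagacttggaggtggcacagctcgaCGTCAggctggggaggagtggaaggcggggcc
Pde1a: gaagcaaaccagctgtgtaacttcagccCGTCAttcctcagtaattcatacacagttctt
Pde8a: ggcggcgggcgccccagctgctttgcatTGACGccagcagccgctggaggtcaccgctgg

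The core stood in 5 of the 22 windows (22.7%), of Pde4b, Pde4a, Pde1a, Pde8a and, after the start, Pde2a, against 20.8% of all 32851 windows of that length. The full element, which contains the core on both strands, stood in 0 of the 22 windows and in 1.79% of all windows. The antioxidant response element, searched as TGACNNNGC on either strand, stood in 3 of the 22 (13.6%), of Pde4b, Pde1c and Pde5a, against 12.4% of all windows. These shares describe letters in short windows: Pde4b, Pde4a, Pde1a, Pde1c and Pde2a each have 3 to 5 windows, and the table gives Pde4d a single one.

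The deposited values are log2 signals per probe set and array. The 6 array medians lay between 4.32 and 4.37. A floor was set at 4.345, the median over all probe sets, and genes with a lower 6-array mean were set aside as dim, which left 10547 genes for limma's moderated test. Of the 10 phosphodiesterases 9 were tested, and Pde5a was dim. A gene counts as called with a Benjamini-Hochberg adjusted p under 0.05 over all genes tested, and SE is that fit's standard error. Signals of different probe sets are not comparable as amounts, so each gene is set only against itself.

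All 10 cardiomyocyte markers were tested, and their mean log2 signal was 12.23 to 12.26 in 2MT and 12.23 to 12.25 in saline. Limma called 0 of them, where 4.63% of all genes tested were called. At an unadjusted p under 0.05 there were 2, Tnnc1 (log2 difference -0.16) and Mb (0.10). Of all 10547 genes tested, 1873 had such a p. Saline 3 stood apart on the second principal component and had the highest signal of the erythrocyte enzyme gene Alas2, at 7.07 against 5.15 to 5.76 on the other arrays. Bpgm was also highest there, at 6.77, while Slc4a1, a dim erythrocyte gene, read 4.08 there and 4.07 on saline 1. Saline 2 had the highest signal of the atrial myosin light chain genes, with Myl7 at 4.95 against 3.38 to 3.63 and Myl4 at 6.47 against 4.80 to 5.13 elsewhere. Of the other atrial markers, Sln (3.56) and Tbx5 (7.31) were also highest on saline 2. Nppa, the brightest, was lowest there, at 9.91 against 10.21 to 10.59, and Bmp10 was not highest (2.72, against 2.74 on 2MT 2). Myl7, Sln and Bmp10 were dim. Values without saline 2 and without saline 3 are therefore given below. In tissue RNA, fewer cells of a type and less RNA per cell cannot be told apart.

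In the fit over all genes, 1 of the 9 phosphodiesterases, Pde4d, lay past the threshold, lower in 2MT, which restates the difference it was listed for. That is 11.1% of the 9, where 4.63% of all genes tested were called (2.41% lower and 2.22% higher). Groups did not overlap in 3 of the 9, Pde4d, Pde1a and Pde8a, all lower in 2MT, where 21.1% of all genes tested did not overlap (10.1% lower and 11.1% higher). The genes were listed with this comparison in view, and nothing is read from this call or these shares. Over the 9 genes the median log2 difference was -0.02, with a range from -0.53 to 0.15, and over all genes tested the median was 0.00.

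**Figure D1:**
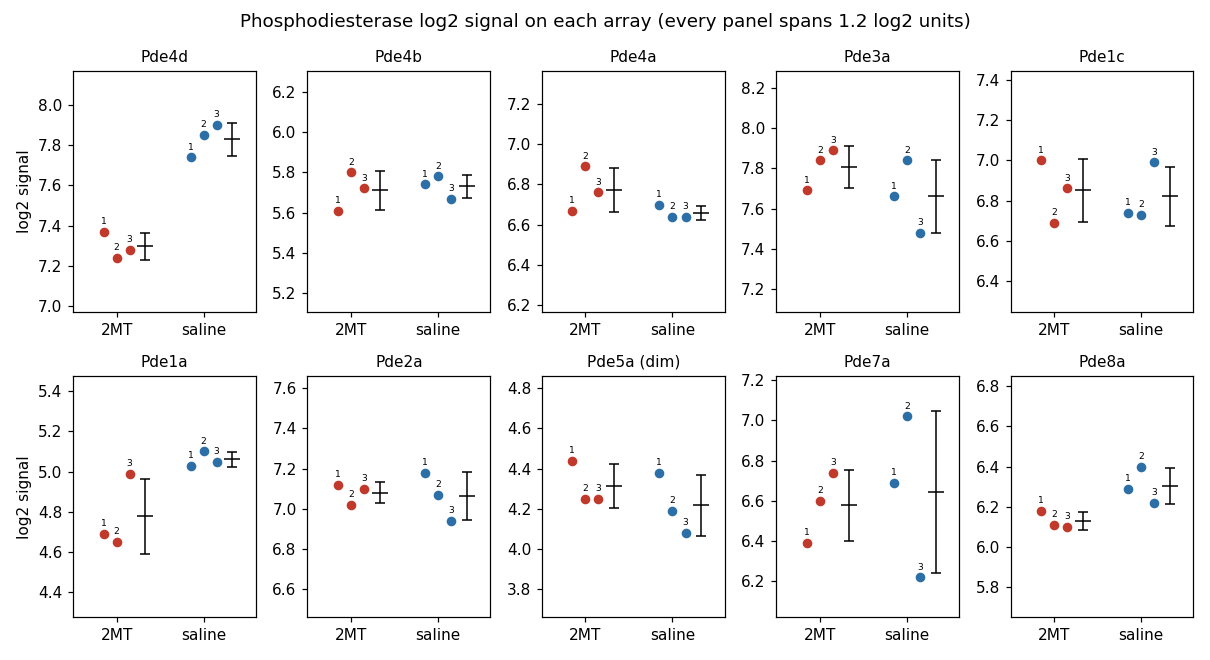
Log2 signal (vertical axes, each spanning the same 1.2 log2 units) of the 10 phosphodiesterase genes on the 3 2MT arrays (red) and the 3 saline arrays (blue), numbered by replicate, with the group mean and SD as black bars. Pde4d separates widely, with 2MT arrays at 7.24 to 7.37 and saline arrays at 7.74 to 7.90, while Pde7a spreads from 6.22 to 7.02 within saline.

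The Pde4 enzymes are specific for cAMP, are blocked by rolipram, and carry out a large share of cAMP breakdown in rodent cardiomyocytes. Pde4d encodes the form found with beta-arrestin at activated beta-adrenergic receptors and in the complex of the cardiac ryanodine receptor. Its log2 signal was 7.37, 7.24 and 7.28 on the 2MT arrays, against 7.74, 7.85 and 7.90 on the saline arrays. Every 2MT array lay below every saline array, and the gap between the groups was wider than the range within either. The means were 7.30 ± 0.07 in 2MT and 7.83 ± 0.08 in saline (SD, n = 3 each). The log2 difference was -0.53 ± 0.07 (SE), which puts the linear signal in 2MT at 69.1% of that in saline. The difference was 7.15 times the within-group SD of the gene, and 98.9% of all genes tested had a difference no larger in size.

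Pde4d was also read by 2 dimmer probe sets. The one annotated with 4 transcripts read 5.63, 5.54 and 5.56 in 2MT, against 5.95, 5.67 and 5.94 in saline. The one annotated with a single cDNA, whose mean lay under the dim floor, read 2.55, 2.59 and 2.47 in 2MT, against 2.83, 2.92 and 2.65 in saline. On both, the 2MT arrays again lay below all saline arrays. Their log2 differences were -0.28 and -0.26, smaller than that of the brightest probe set, which is annotated with 18 transcripts and stands for the gene elsewhere. The mean of all 3 probe sets gave -0.36. Without saline 2 the difference of the brightest probe set was -0.52 and without saline 3 it was -0.50.

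**Figure D2:**
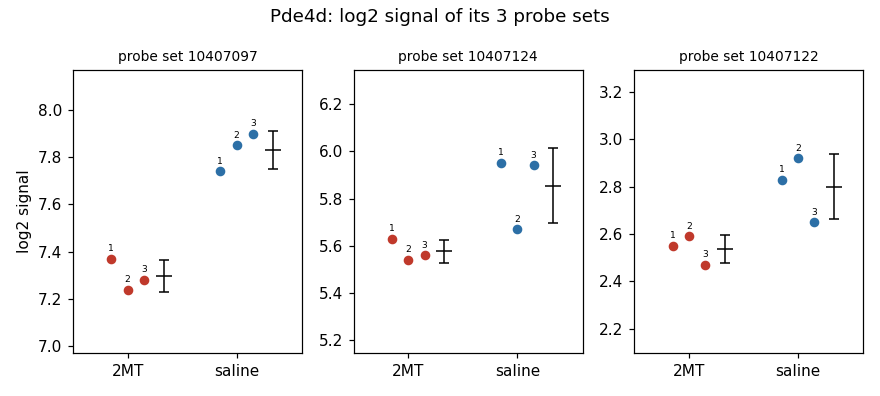
Log2 signal (vertical axes, equal spans) of the 3 Pde4d probe sets on 2MT (red) and saline (blue) arrays, numbered by replicate, with group mean and SD in black. In each panel the 3 2MT arrays lie below the 3 saline arrays, with differences of -0.53, -0.28 and -0.26 from left to right.

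Pde4b encodes the Pde4 enzyme that in mouse heart takes part in restraining the L-type calcium current and that in leukocytes is induced by inflammatory signals. It read 5.61, 5.80 and 5.72 in 2MT, against 5.74, 5.78 and 5.67 in saline. The groups overlapped throughout, and the highest and the lowest array were both 2MT arrays. The means were 5.71 ± 0.10 and 5.73 ± 0.06 (SD, n = 3 each), with a log2 difference of -0.02 ± 0.08 (SE). Without saline 2 the difference was 0.01 and without saline 3 it was -0.05, so its direction depended on the arrays used.

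Pde4a, the third Pde4 gene of the set, read 6.67, 6.89 and 6.76 in 2MT, against 6.70, 6.64 and 6.64 in saline. The saline arrays lay within a narrow band, and 2MT 1 fell inside it. The means were 6.77 ± 0.11 in 2MT and 6.66 ± 0.03 in saline (SD, n = 3 each), with a log2 difference of 0.11 ± 0.07 (SE). Without saline 2 or without saline 3 it was 0.10. The 3 Pde4 genes thus had a difference of -0.53 (Pde4d), -0.02 (Pde4b) and 0.11 (Pde4a). Whether these differences differ from one another was not tested.

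Pde7a and Pde8a encode further cAMP-specific enzymes, which rolipram does not block. Pde8a, an enzyme of high affinity for cAMP that limits the calcium response of mouse cardiomyocytes to beta-adrenergic stimulation, read 6.18, 6.11 and 6.10 in 2MT, against 6.29, 6.40 and 6.22 in saline. All 2MT arrays were below all saline arrays, the closest pair, 2MT 1 and saline 3, by less than the range within either group. The means were 6.13 ± 0.04 in 2MT and 6.30 ± 0.09 in saline (SD, n = 3 each). The log2 difference was -0.17 ± 0.08 (SE), and it was -0.13 without saline 2 and -0.22 without saline 3.

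Pde7a read 6.39, 6.60 and 6.74 in 2MT, against 6.69, 7.02 and 6.22 in saline. Its highest array, saline 2, was also highest for the atrial genes Myl7 and Myl4. Its lowest, saline 3, was highest for the erythrocyte gene Alas2. Not every atrial or erythrocyte marker stood out on those arrays, and the part of those cells in this spread was not tested. The means were 6.58 ± 0.18 in 2MT and 6.64 ± 0.40 in saline (SD, n = 3 each). The within-group SD of 0.31 was the widest of the 10 genes, and 99.5% of all genes tested had one no larger, where the median was 0.10. The log2 difference of -0.07 ± 0.15 (SE) became 0.12 without saline 2 and -0.28 without saline 3. It was also positive, at 0.03, without 2MT 1, so no direction can be given for this gene.

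Pde3a encodes a cGMP-inhibited cAMP phosphodiesterase, the target of milrinone, which in cardiomyocytes sits with phospholamban and the calcium pump of the sarcoplasmic reticulum. It read 7.69, 7.84 and 7.89 in 2MT, against 7.66, 7.84 and 7.48 in saline. 2MT 2 and saline 2 were tied, and saline 3 was the lowest array. The means were 7.81 ± 0.10 in 2MT and 7.66 ± 0.18 in saline (SD, n = 3 each), with a log2 difference of 0.15 ± 0.09 (SE). The difference was positive under every alternative tried and moved with the saline arrays, to 0.24 without saline 2 and 0.06 without saline 3.

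Pde1 enzymes are activated by calcium and calmodulin. Pde1c, which cuts both nucleotides, read 7.0, 6.69 and 6.86 in 2MT, against 6.74, 6.73 and 6.99 in saline. The groups covered nearly the same range, with means of 6.85 ± 0.16 and 6.82 ± 0.15 (SD, n = 3 each) and a log2 difference of 0.03 ± 0.09 (SE). It was -0.02 without saline 2 and 0.12 without saline 3.

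Pde1a, which prefers cGMP, read 4.69, 4.65 and 4.99 in 2MT, against 5.03, 5.10 and 5.05 in saline. The saline arrays stood close together, 2MT 1 and 2MT 2 lay well below them, and 2MT 3 lay just under the lowest. The means were 4.78 ± 0.19 in 2MT and 5.06 ± 0.04 in saline (SD, n = 3 each), 0.57 above the dim floor over all arrays. The log2 difference of -0.28 ± 0.11 (SE), 82.2% of the saline signal, was the next in size to that of Pde4d. Without saline 2 it was -0.26, without saline 3 -0.29, and without 2MT 3 -0.39. Adding an offset of 16 to the linear signal before log2 brought it to -0.18.

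Pde2a encodes an enzyme that cGMP stimulates to cut cAMP, and so links the 2 nucleotides. It read 7.12, 7.02 and 7.10 in 2MT, against 7.18, 7.07 and 6.94 in saline. The 2MT arrays all fell inside the saline range, and the means were 7.08 ± 0.05 and 7.06 ± 0.12 (SD, n = 3 each). The log2 difference was 0.02 ± 0.07 (SE), and it was 0.02 without saline 2 and -0.05 without saline 3. Pde2a is also expressed in endothelial cells. Of 8 endothelial markers limma called 1, Pecam1, lower in 2MT, and 7 were not called, where 2.41% of all genes tested were called lower. At an unadjusted p under 0.05 there were 3: Pecam1 and, higher in 2MT, Kdr (log2 difference 0.24) and Emcn (0.20). Of all 10547 genes tested, 1873 had such a p.

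Pde5a encodes the cGMP-specific enzyme that sildenafil blocks, known best from vascular smooth muscle. It read 4.44, 4.25 and 4.25 in 2MT, against 4.38, 4.19 and 4.08 in saline. Its mean over the 6 arrays lay 0.08 under the dim floor, so it was left out of the fit and its low signal limits what it can show. The means were 4.31 ± 0.11 in 2MT and 4.22 ± 0.15 in saline (SD, n = 3 each), and the log2 difference was 0.10 ± 0.12 (SE, from the fit with no dim filter). It was 0.08 without saline 2 and 0.03 without saline 3. Of 7 tested smooth muscle markers 0 were called in limma. At an unadjusted p under 0.05 there were also 0 of the 7, against 1873 of all 10547 genes tested.

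Across the 10 genes, the difference exceeded the gene's own within-group SD in 4, Pde4d, Pde8a, Pde1a and Pde4a, and not in the other 6. The share of all genes tested that pass this bar was not counted, so nothing is read from the 4. Over all genes tested the median size of the difference was 0.09 and the median within-group SD was 0.10. The within-group SD was under the median of all genes tested in 5 of the 10, Pde4d, Pde4b, Pde4a, Pde2a and Pde8a. Saline 3 was the lowest array of 4 genes, Pde3a, Pde2a, Pde5a and Pde7a, and the highest of 1, Pde4d. Saline 2 was the highest array of 3, Pde1a, Pde7a and Pde8a. Of the 9 tested genes, 5 kept their direction under every alternative tried (Pde4d, Pde1a and Pde8a lower, Pde3a and Pde4a higher in 2MT), and 4 changed it when an array was left out (Pde4b, Pde1c, Pde2a and Pde7a).

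The genes whose signal followed that of Pde4d most closely over the 6 arrays were Tmem144, Thtpa and Nom1, with Pearson r of 0.993, 0.990 and 0.988. These r describe 6 arrays that fall into 2 groups, so a gene that differs between the groups in the same direction scores high. Tmem144 averaged 5.88 ± 0.05 in 2MT, against 6.29 ± 0.05 in saline (SD, n = 3 each). Thtpa and Nom1 had smaller differences, of -0.19 ± 0.09 and -0.24 ± 0.08 (SE), and were not called (limma adjusted p = 0.30 and 0.11). All 3 were picked by their r with Pde4d, so their group differences and p are a description. An r over 0.95 with Pde4d was found for 77 tested genes.

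The other 14 genes of the family on the array were compared by the same fit. Of the 7 tested, limma called 0 (0 also had an unadjusted p under 0.05, against 1873 of all 10547 genes tested). The log2 differences of the 7 had a median of 0.05. Pde7b, the relative of Pde7a, averaged 7.19 ± 0.05 in 2MT, against 7.09 ± 0.04 in saline (SD, n = 3 each), the one gene of the 7 without overlap (limma adjusted p = 0.45). Pde8b, the relative of Pde8a, differed by -0.00, Pde1b by 0.06, Pde4c by -0.11, Pde9a, a cGMP-specific enzyme, by 0.13, and Pde11a by -0.06. Pde6d, which encodes a carrier of prenylated proteins rather than a catalytic subunit, differed by 0.05. Limma adjusted p of these 6 lay between 0.62 and 0.99, and the differences of Pde4c, Pde8b and Pde11a changed sign under some alternatives.

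Pde3b, Pde10a and the retinal genes Pde6a, Pde6b, Pde6c, Pde6g and Pde6h were dim. Pde3b, the relative of Pde3a, read 4.23, 4.02 and 4.21 in 2MT, against 4.48, 4.44 and 4.43 in saline, so that its mean lay just under the dim floor. The groups did not overlap, but its log2 difference of -0.30 ± 0.11 (SE) was not called in the fit with no dim filter (limma adjusted p = 0.24). Pde6h differed by 0.27 at signals of 3.14 to 3.67 (limma adjusted p = 0.39 in that fit).

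**Figure D3:**
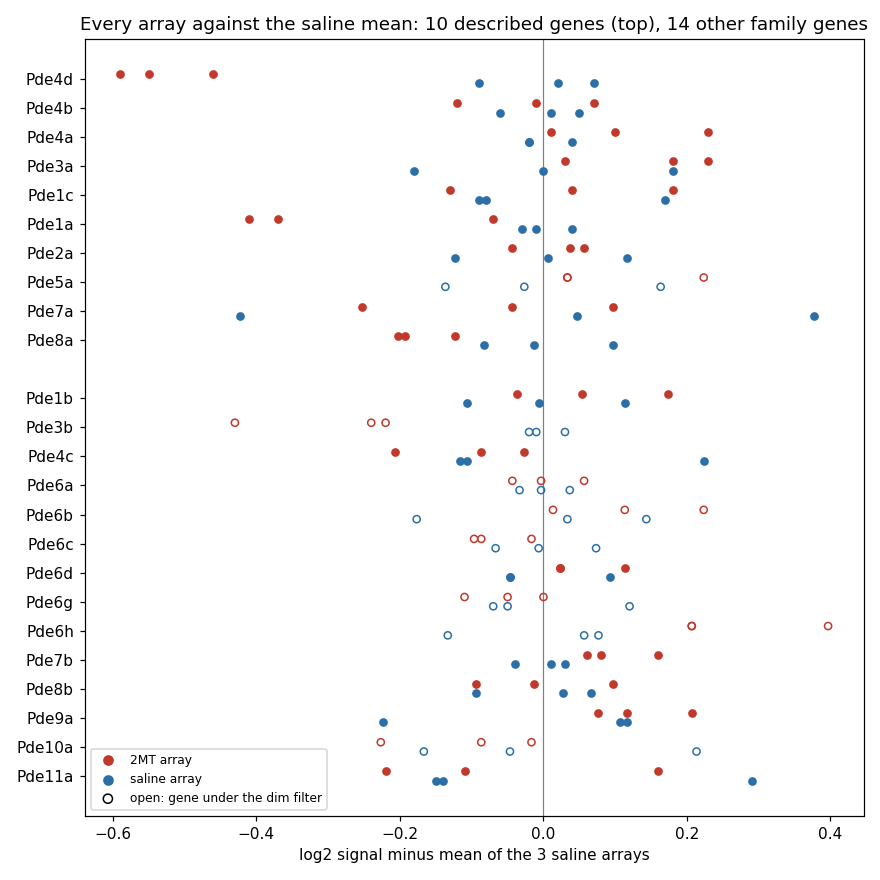
Log2 signal of each array minus the mean of the 3 saline arrays (horizontal axis) for the 10 described genes (upper block) and the 14 other family genes (lower block), with 2MT arrays in red, saline arrays in blue and dim genes as open circles. The 3 Pde4d points of 2MT lie farthest left, and most other genes have red and blue points over the same range.

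The pathway around these enzymes was described by 8 gene lists, 1 of them the relatives just given. Together they held 149 genes on the array outside the 10, of which 111 were tested and 11 were called (9.91%), 6 higher and 5 lower in 2MT, where 4.63% of all genes tested were called (2.22% higher and 2.41% lower). The lists were chosen with earlier results known, and nothing particular to them is read from this share. Their median log2 difference was 0.04, against 0.00 over all genes tested. Leaving out 2MT 1, 2MT 2, 2MT 3, saline 1 or saline 2 brought the 11 to 6, 6, 4, 4 and 6, and without saline 3 there were 11. Adjusted p values in what follows are limma's.

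On the supply side, 1 of 18 tested genes of cAMP production rose. Gng5, a G protein gamma subunit, averaged 9.42 ± 0.06 in 2MT, against 9.21 ± 0.07 in saline (SD, n = 3 each, adjusted p = 0.044). Its call was lost without 2MT 2 (0.15), 2MT 3 (0.20), saline 1 (0.15) or saline 2 (0.13) and in 6 other alternatives, 3 of them the other scalings. Of 13 genes of cGMP production and action, Nppb, which encodes brain natriuretic peptide, rose by 1.73 ± 0.15 (SE, adjusted p = 1.3e-05). In the same list Rgs2, a G protein regulator that protein kinase G activates, fell by 0.33 ± 0.06 (SE, adjusted p = 0.0080). Both kept their call in all 17 alternatives of scaling, filter, fit and left-out array.

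Of 12 tested cAMP effectors 1 rose and 1 fell, both of the Popeye domain family of cAMP-binding membrane proteins. Popdc2 read 10.11, 10.12 and 10.06 in 2MT, against 9.73, 9.87 and 10.00 in saline (adjusted p = 0.047). Popdc3 read 6.25, 6.19 and 6.15 in 2MT, against 6.50, 6.50 and 6.42 in saline (adjusted p = 0.044). Neither kept its call when 2MT 1 (adjusted p = 0.13 for Popdc2 and 0.068 for Popdc3), 2MT 2 (0.16 and 0.13), 2MT 3 (0.12 and 0.18), saline 1 (0.17 and 0.13) or saline 2 (0.12 for both) was left out. Popdc2 also lost it under quantile normalization (0.052), cyclic loess (0.061), no dim filter (0.079), every probe set tested on its own (0.095) and no variance trend (0.19). Popdc3 also lost it under median centring (0.053), no dim filter (0.075), every probe set tested on its own (0.065) and no variance trend (0.064). Of 17 tested anchoring proteins and Pde4 partners 0 were called in limma. At an unadjusted p under 0.05 there were 3 of the 17, against 1873 of all 10547 genes tested. The smallest p there were those of Arrb2, a beta-arrestin that carries Pde4d to receptors, at -0.29 ± 0.10 (SE, adjusted p = 0.13), and of Akap12, an anchoring protein of protein kinase A, at 0.33 ± 0.13 (SE, adjusted p = 0.18).

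Of 14 tested protein kinase A substrates of contraction 1, Rrad, a GTPase that restrains the L-type calcium channel, rose by 0.48 ± 0.11 (SE, adjusted p = 0.021). Its call was lost without 2MT 1 (0.091), 2MT 3 (0.072), saline 1 (0.091) or saline 3 (0.065), with every probe set tested on its own (0.071) and with no variance trend (0.096). Of 9 tested calmodulin and calcium-activated genes 1, Camk2g, rose by 0.29 ± 0.07 (SE, adjusted p = 0.039), and its call was lost without 2MT 1 (0.13), 2MT 2 (0.13), 2MT 3 (0.083), saline 1 (0.11) or saline 2 (0.086), with no dim filter (0.067), with every probe set tested on its own (0.058) and with no variance trend (0.052).

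Pde4d has itself been counted among cAMP-induced genes, so the list of CREB proteins and cAMP-induced genes is set beside it. Of its 21 tested genes 3 fell and 1 rose, where 2.41% of all genes tested fell and 2.22% rose. Dusp1, a MAP kinase phosphatase, fell by 0.52 ± 0.10, Sik1, a kinase that restrains CREB coactivators, by 0.44 ± 0.09, and Id1 by 0.37 ± 0.08 (SE, adjusted p = 0.010, 0.014 and 0.022). Ppargc1a rose by 0.51 ± 0.07 (SE, adjusted p = 9.0e-04). Ppargc1a kept its call in all 17 alternatives, while Dusp1 lost it without 2MT 3 (0.054), Sik1 without 2MT 1 (0.060), saline 1 (0.056) or saline 2 (0.061), and Id1 without 2MT 2 (0.10), 2MT 3 (0.11) or saline 1 (0.086). With no variance trend Dusp1 (0.067), Sik1 (0.0505) and Id1 (0.079) also lost it, and Id1 did so with every probe set tested on its own (0.058). Crem, which encodes a repressor induced by cAMP, differed by -0.17 ± 0.10 (SE, adjusted p = 0.43), a gene named after its values were seen.

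**Figure D4:**
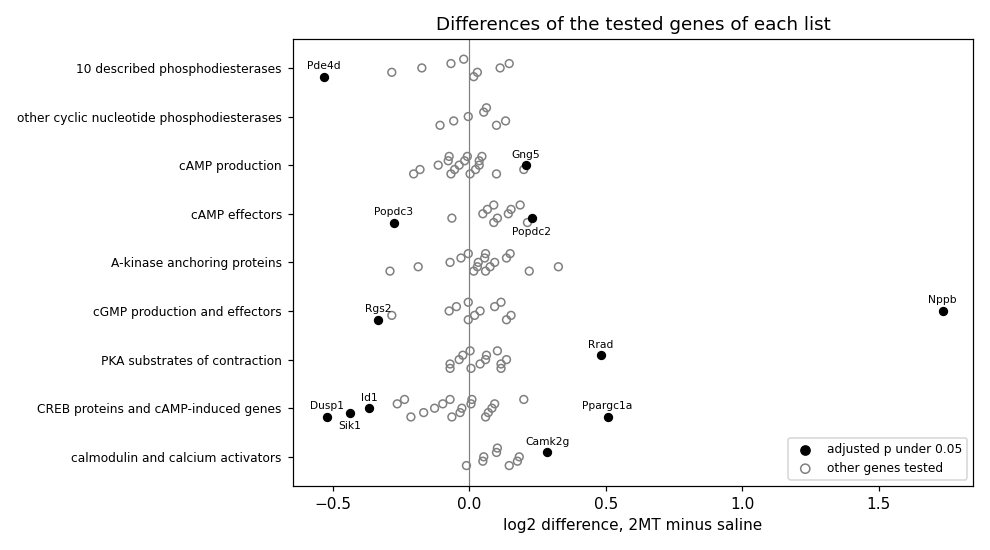
Log2 difference, 2MT minus saline (horizontal axis), of every tested gene of the 10 described phosphodiesterases and of the 8 pathway lists (rows), with called genes filled and named. Pde4d, at -0.53, is filled by the same threshold, which is no test of a gene listed for its difference. Called genes of the pathway lists lie on both sides of 0, from Dusp1 at -0.52 to Nppb at 1.73.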

How the data were processed

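The deposited table gives 1 value for each probe set on each array. These were read as the authors' log2 signal because the values reach 13.5, which no natural logarithm of a scanner signal would; no header states the base. The submitters' processing notes name MAS5 without saying what it did; other steps are not given in the sources used here. No detection calls were used, so signal over background is unknown. Precision is limited by how few arrays there are.

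Probe sets with 1 symbol in the platform annotation (21789 of 28944) were named, and a gene is its probe set with the highest mean. The 2MT and saline arrays were fitted in R 4.3.3 by limma 3.58.1, using lmFit and eBayes with a variance trend and group as the only term (two-sided). The procedure was tested on simulated data. Members and lists were chosen with earlier results of these data known. Named are all members, the other family genes, called genes of each list (otherwise the 2 with the smallest p) and the 3 genes most like Pde4d. The anchoring list holds Mtln, which was entered there in error and kept. Figures were drawn with matplotlib 3.10.9. Alternatives changed 1 choice at a time. Deviations of same-numbered arrays from their group means had r of 0.02 to 0.07. Different-numbered arrays were not compared, so these r cannot decide whether the numbers pair arrays.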

Additional observations from a re-analysis of the deposited data

Results flagged for a closer look

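Among 39 listed genes under the dim filter, 1 was called when no filter was applied: Nr4a3, an orphan nuclear receptor of the list of cAMP-induced genes, whose log2 difference was -0.79, at a mean of 3.59 in 2MT and 4.39 in saline (limma adjusted p = 0.012). In that fit 409 of all 19938 genes were called, and nothing particular to the 39 is read from the 1. Nr4a3 is given here because the comparison of tested genes left it out.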

How the results depend on the processing

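The Pde4d difference ran from -0.58 to -0.36 over 17 alternatives, and 1 of the 10 genes, Pde4d, lay past the threshold in each; these refit the values the list was chosen on and add no test. Of the 153 values of the 10 genes under alternatives, 152 moved by less than the within-group SD; the mean of the Pde4d probe sets (-0.36) moved by more. The 488 genes called became 292 without the variance trend, 262 to 648 with 1 array left out, and 219 and 768 at adjusted p under 0.01 and 0.1. The 11 pathway genes became 5 with every probe set tested on its own, 3 without the variance trend, 3 at adjusted p under 0.01, and 4 to 11 with 1 array left out. With the replicate block, 586 genes, 1 of the 10 phosphodiesterases and 12 pathway genes were called. Among the 10 genes, the differences of Pde4b, Pde1c, Pde2a and Pde7a changed sign when an array was left out. Among the other tested family genes, that of Pde8b did so under quantile normalization (0.0017) and with 1 array left out (-0.053 to 0.042). That of Pde4c did so without saline 1 (-0.165 to 0.0050 over left-out arrays). That of Pde11a did so without 2MT 1 (0.025) or saline 2 (-0.165 to 0.088 over left-out arrays). The cause was not tested. Signal over background is unknown, which limits what dim genes such as Pde5a can show.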
